A study of Mus musculus with 6 samples.

Results

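The genes described here are 32 genes of glycolysis and of the response to low oxygen, chosen by symbol from the 32285 genes of the count matrices. The 21 glycolysis genes comprise 3 glucose transporters, 8 enzymes of the upper steps, 2 regulators, 6 enzymes of the lower steps and 2 genes of lactate metabolism, and the other 11 are targets or parts of the hypoxia response. All 32 symbols were found, in 33 rows, because Aldoa has 2 Ensembl genes; the second, ENSMUSG00000114515, held almost no counts and Aldoa below means ENSMUSG00000030695. The study profiled single cells of mouse lung enriched with CD45 beads after perfusion and digestion with collagenase and DNase I, with 3 libraries of lungs that acute myeloid leukaemia had infiltrated (AML lung) and 3 of normal lung. The labels name no leukaemia model, strain, age or sex, do not say which cells are leukaemic, and do not say that the 3 libraries of a group are separate animals, so p-values measure the spread between these libraries, which may be technical.

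Glycolysis splits glucose into pyruvate and makes ATP without oxygen. Hexokinase and phosphofructokinase control its upper steps, the lower steps from glyceraldehyde-3-phosphate dehydrogenase to pyruvate kinase yield the ATP, and lactate dehydrogenase turns pyruvate into lactate that leaves the cell through monocarboxylate transporters. When oxygen is scarce, the transcription factor HIF-1 escapes hydroxylation and degradation and induces many of these enzymes together with genes for glucose uptake, mitochondrial turnover and lipid storage. Neutrophils are known to depend on glycolysis, whereas alveolar macrophages live in an oxygen-rich space and handle surfactant lipids.

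Counts are unique molecular identifiers (UMIs), and a level is given in CPM, the UMIs of a gene per 1000000 UMIs of the cells of a class in a library. CPM is a share of the RNA captured and not an amount per cell, and it is not scaled by gene length. In each of the 8 main classes, the median log2 change between the groups was higher for short genes than for long ones. Values for several classes are given below. Libraries held 43913245 to 66513826 UMIs. They differed in cells: AML lung replicate 3 had 35391 barcodes with a median of 1067 UMIs each, against 4687 and 13120 barcodes with medians of 9381 and 3979.5 in the other 2 AML lung libraries, and 3967, 5873 and 10057 barcodes with medians of 9354, 6102 and 2740 in normal lung. Library pairs shared 2 to 118 barcodes, at most 1.13% of the smaller library. No cell annotation was used, so cells were assigned to classes by marker genes, none of which is among the 32. Of 71634 cells kept, 70.9% entered a class by its markers and 21.3% had markers of at least 2 classes and were set aside. In AML lung replicate 3 these shares were 57.0% and 30.9%. The 8 main classes held 47627 cells. The 10 genes that best set a class apart held 3 to 8 of its own markers in each of the 8. Those of classical monocytes also held Prtn3, a granule protease of myeloid precursors. Those of interstitial macrophages also held Pf4, which is on the platelet marker list used here. Classes built here may differ from those of the study.

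The members' levels differed by cell class. Most members stood above the other classes in classical monocytes and, with the scaling used in the test, in nonclassical monocytes and neutrophils, and most stood below in B cells. Among the 30 members with enough counts to test, neutrophils had 22 above and 6 below the mean of the other 7 main classes, where 32.5% of all genes tested were higher and 37.8% lower (edgeR's quasi-likelihood test on UMIs summed per class and library, adjusted p under 0.05, library as a covariate). Classical monocytes had 20 higher and 5 lower against 31.1% and 24.3% of all genes, and nonclassical monocytes 17 higher and 6 lower against 32% and 20.3%. Alveolar macrophages were even, with 12 higher and 12 lower (background 39.4% and 31.5%), and interstitial macrophages had 8 higher and 5 lower (background 16.2% and 17.1%). The lymphocyte classes had more members lower than higher: B cells had 2 higher and 22 lower (background 35.7% and 33.5%), T cells 7 and 14 (background 37% and 31.9%) and NK cells 6 and 16 (background 32.9% and 29.2%). The median log2 difference of the members was 0.98 in neutrophils and -1.17 in B cells, against -0.16 and 0.01 for all genes in the same contrasts. These fits scale libraries by TMM (a trimmed mean of gene ratios) and compare averages of log levels, so their log2 differences need not equal the ratio of mean CPM. Scaling by UMI totals alone, an alternative chosen after seeing the data, moved neutrophils most: the median of all genes there became -0.80 and that of the members 0.31, with 15 members higher and 9 lower against 19.8% and 58.1% of all genes. The differences of Eno1, Pfkp, Pgam1 and Pgk1 turned negative there, passing the test for Pgam1 and Pgk1, and no called member turned sign in another class. By totals alone interstitial macrophages had 14 higher and 2 lower (background 23.5% and 8.83%). T cells had 10 and 12 (background 45.1% and 25.8%) and NK cells 9 and 13 (background 47.6% and 21.2%). Classical monocytes kept 20 and 5 (background 29.3% and 25.4%), and nonclassical monocytes had 15 and 6 (background 24.9% and 25.2%).

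**Figure D1:**
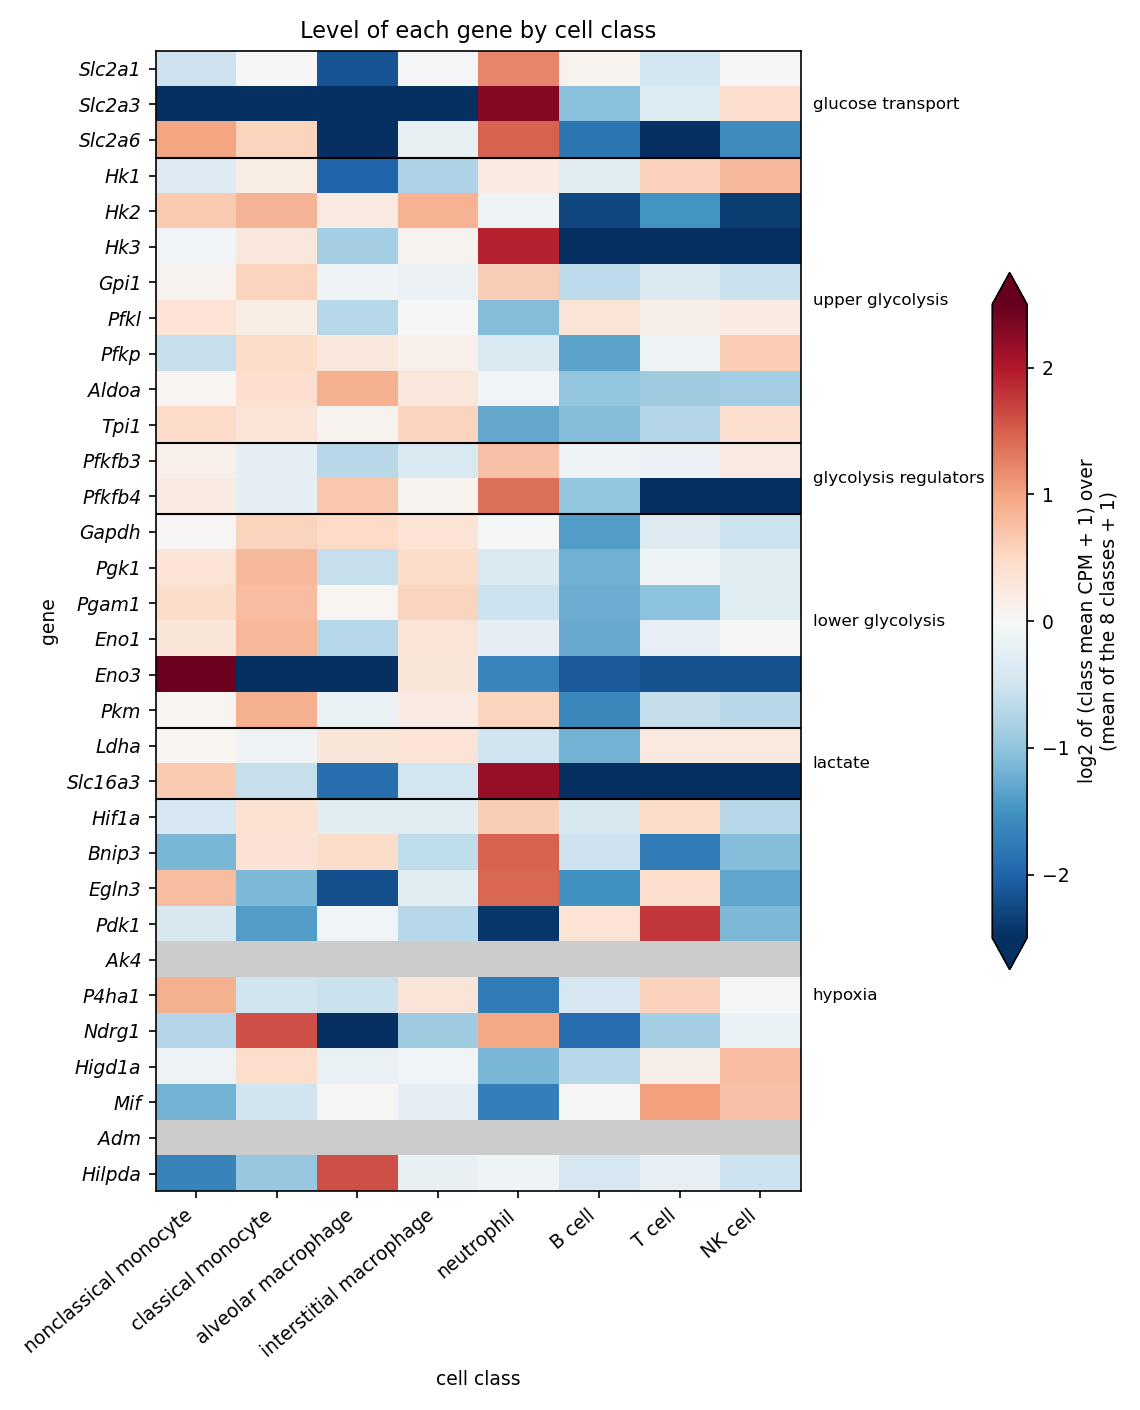
Level of each member gene (rows, ordered by role) in each main cell class (columns), as the log2 ratio of its mean CPM over libraries to the mean of the 8 classes with a pseudocount of 1, and grey for 2 genes with under 100 UMIs. Neutrophils are reddest for the glucose transporters, Slc16a3, Hk3 and Pfkfb4, nonclassical monocytes for Eno3, and B cells are blue for most enzymes.

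The genes of glucose uptake and lactate export had their highest mean levels among the main classes in neutrophils. The log2 differences of this class are relative to TMM scaling; with UMI totals alone members' values were lower by a median of 0.68 (log2). Slc2a3, which encodes the high-affinity glucose transporter GLUT3, had a lowest, median and highest level of 176, 313 and 469 CPM over the 6 libraries in neutrophils, against a mean of 28.7 ± 3.83 CPM (SD, n = 6) for the other classes. That is a log2 difference of 5.02 (SE 0.14 with an edgeR adjusted p of 8.19e-29). Slc16a3, the lactate exporter MCT4, had 198, 363 and 565 CPM in neutrophils against 40.1 ± 8.63 CPM in the others, a log2 difference of 5.11 (SE 0.23). The transporter GLUT1, encoded by Slc2a1, had 85.8, 127 and 146 CPM in neutrophils against 41.3 ± 11.5 CPM in the others (log2 difference 2.54, SE 0.18). For each of the 3 transporters every neutrophil library lay above the mean of the other classes in the same library. Among enzymes the difference was uneven: the myeloid hexokinase Hk3 averaged 71.1 ± 22.3 CPM in neutrophils and 10.2 ± 1.16 CPM in the other classes (log2 4.32), and Pfkfb4, which sets the level of the activator of phosphofructokinase, averaged 130.4 ± 32.2 CPM in neutrophils and 37.6 ± 6.05 CPM in the others (log2 3.19). Pyruvate kinase, Pkm, was higher by 1.57 on the log2 scale, while triose-phosphate isomerase, Tpi1, was lower (-0.62). Of the hypoxia genes, Hif1a, the oxygen-regulated subunit of HIF-1, was higher in neutrophils (log2 1.47), as were the mitophagy receptor gene Bnip3 (2.91), the HIF prolyl hydroxylase gene Egln3 (3.35) and Ndrg1 (2.66). Pdk1, whose kinase restrains pyruvate dehydrogenase, was lower in neutrophils (-1.68), as were the cytokine gene Mif (-1.07) and P4ha1, a subunit of the collagen prolyl hydroxylase (-1.29).

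The 2 monocyte classes shared higher levels of several lower-glycolysis enzymes and differed in single genes. Eno3, the enolase known from muscle, was the member most set apart in nonclassical monocytes, with a lowest, median and highest level of 173, 209 and 378 CPM, against 13.9 ± 12.8 CPM (SD, n = 6) in the other classes and a log2 difference of 5.13 (SE 0.22). In classical monocytes Eno3 had 0.655, 3.16 and 21 CPM, against 48.3 ± 20.4 CPM in the others (log2 -1.35). The common enolase Eno1 had 165, 258 and 379 CPM in classical monocytes, a log2 difference of 1.11 from the others, and 160.4, 177 and 214 CPM in nonclassical monocytes, a log2 difference of 0.63. By these levels, nonclassical monocytes held mRNA of both enolases and classical monocytes mainly that of Eno1. Classical monocytes were also higher for Pkm (log2 1.22), phosphoglycerate kinase Pgk1 (1.08), phosphoglycerate mutase Pgam1 (1.10), the inducible hexokinase Hk2 (1.57) and Ndrg1, at 72.4 ± 21.9 CPM against 16.1 ± 3.74 CPM in the others. Nonclassical monocytes were higher for Hk2 (1.40), Slc16a3 (2.74), the transporter gene Slc2a6 (2.50) and P4ha1 (1.36), and lower for Hilpda (-1.70), whose protein holds back lipolysis at lipid droplets.

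Alveolar macrophages had high aldolase and little glucose transporter mRNA. Aldoa, the aldolase of most tissues, had 260.3, 309.6 and 377 CPM in alveolar macrophages against 143 ± 34.05 CPM (SD, n = 6) in the other classes (log2 1.29, SE 0.12). Slc2a1 averaged 10.8 ± 4.55 CPM in alveolar macrophages against 57.6 ± 9.64 CPM in the others (log2 -2.28), and Slc2a3 3.91 ± 1.91 CPM in alveolar macrophages against 75.2 ± 16.96 CPM in the others (log2 -2.84). Hk1, the housekeeping hexokinase, was lower, at 7.37 ± 1.41 CPM in alveolar macrophages against 36.6 ± 5.36 CPM in the others (log2 -2.20), and Hk2 was higher (log2 0.89). Hilpda had 19.9, 35.3 and 79.9 CPM in alveolar macrophages, against a mean of 8.27 ± 4.5 CPM in the other main classes, with a log2 difference of 2.40. Outside the main classes its mean was higher, at 191 CPM in endothelial cells (5 libraries) and 156 CPM in group 2 innate lymphoid cells (2 libraries). Interstitial macrophages, measured in 5 libraries because normal lung replicate 1 held only 10 such cells, were higher for Hk2 (1.42), Hk3 (1.63) and Eno3 (1.94).

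B cells had most members on the low side, and T and NK cells had members on both sides. Gapdh averaged 195 ± 74.8 CPM in B cells against 552 ± 143 CPM in the other classes (SD, n = 6, log2 -1.65, SE 0.16), and Pkm had a log2 difference of -1.83. T cells had the highest Pdk1 level of the main classes, 27.3, 80.9 and 101 CPM against 13.9 ± 4.36 CPM in the others (log2 2.53, SE 0.13), and Pdk1 was 1 of the 2 members higher in B cells (0.87), the other being the phosphofructokinase gene Pfkl (0.33). Mif had 108, 115 and 144 CPM in T cells (log2 1.29). NK cells were higher for Hk1 (0.92), the phosphofructokinase gene Pfkp (0.64), Slc2a3 (1.92) and Higd1a, an inner mitochondrial membrane protein gene, at 93.03 ± 11.9 CPM in NK cells against 48.4 ± 4.93 CPM in the others. Ak4, a mitochondrial adenylate kinase gene, had 12 UMIs in all classes together and was not tested. Adm, which encodes the vasodilator adrenomedullin, had 85 UMIs, of which 71 were in B cells.

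Between AML and normal lung, members passed the test in 3 of the 8 classes: the monocytes and the interstitial macrophages. In nonclassical monocytes Ldha and Aldoa rose and Hk2 and Pfkfb4 fell in AML lung. In classical monocytes Gapdh, Ldha and Pgk1 rose and Hk2 fell. In interstitial macrophages Eno3 rose and Hk2 and Pfkp fell. Against the backgrounds of the same fits, 2 of 30 members tested were higher and 2 lower in nonclassical monocytes, where 2.1% of all genes were higher and 1.53% lower. In classical monocytes 3 of 29 were higher and 1 lower (background 1.49% and 0.899%), and in interstitial macrophages 1 of 25 was higher and 2 lower (background 0.687% and 0.715%). Ranges also separated: in classical monocytes 14 members had every AML lung library above every normal lung library and 3 had every one below, against 15.3% and 12.3% of all genes, and in nonclassical monocytes 9 and 6, against 13.1% and 15.5%. Interstitial macrophages had 10 above and 5 below (background 20.2% and 15.3%, with 3 against 2 libraries).

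The genes that passed are protein coding and lie, on GRCm38 by GENCODE M21, as follows. Hk2 (ENSMUSG00000000628) is at chr6:82725025-82774454 (-), overlapping Gm17034 on the other strand, and Gapdh (ENSMUSG00000057666) is at chr6:125161715-125166467 (-), overlapping Iffo1. Ldha (ENSMUSG00000063229) is at chr7:46841475-46855627 (+), and Aldoa at chr7:126795234-126800751 (-). Pgk1 (ENSMUSG00000062070) is at chrX:106187100-106203699 (+), Pfkfb4 (ENSMUSG00000025648) at chr9:108991778-109032228 (+) and Eno3 (ENSMUSG00000060600) at chr11:70657202-70662513 (+). Pfkp (ENSMUSG00000021196) is at chr13:6579768-6648777 (-), where it overlaps Pitrm1. Counts are per whole gene, so no exon or isoform can be told from them.

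**Figure D2:**
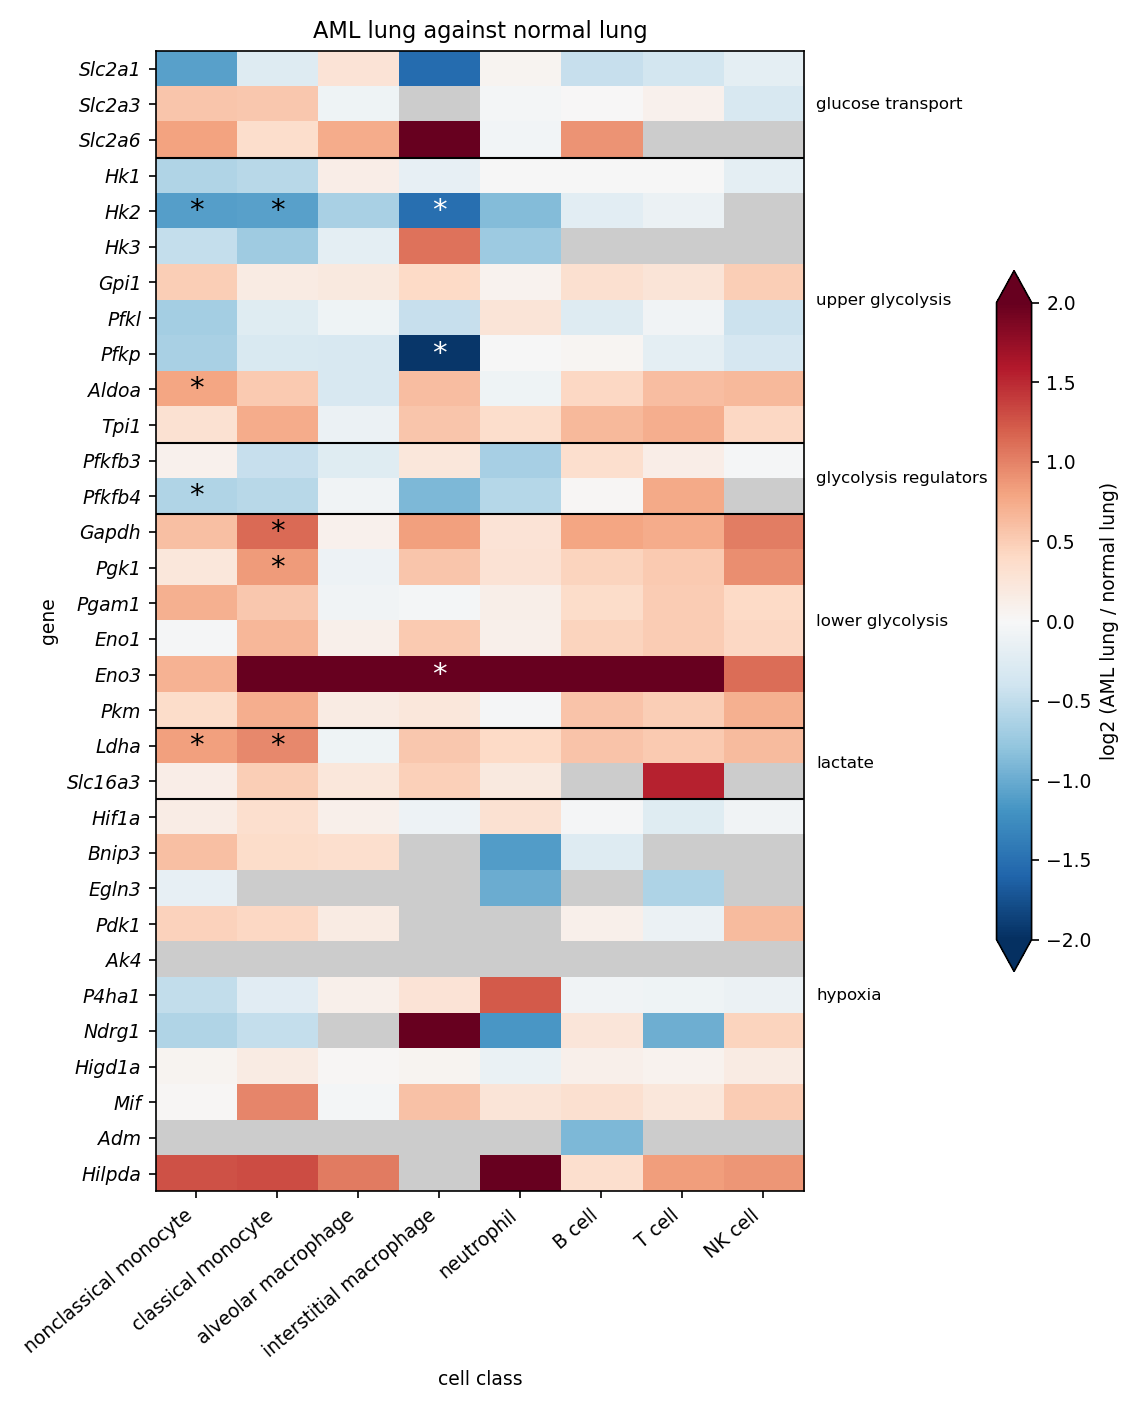
Log2 change of each member gene (rows) in AML lung over normal lung in each main class (columns), with an asterisk where the edgeR adjusted p is under 0.05 and grey where a gene was not tested in that class. Lower-glycolysis genes are mostly positive, Hk2 is negative in all 7 classes in which it was tested, and asterisks are in the 2 monocyte columns and that of interstitial macrophages.

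Nonclassical monocytes, the patrolling monocytes of vessels, were the largest class in AML lung, with 2326, 5418 and 6152 cells against 381, 745 and 1035 in normal lung. Ldha, the lactate dehydrogenase subunit favouring lactate, had 229, 215 and 164 CPM in AML lung replicates 1 to 3, against 111, 131 and 107 CPM in normal lung. The ranges did not overlap, and the means were 203 ± 34.5 CPM for AML lung against 117 ± 12.96 CPM for normal lung (SD, n = 3 each), a log2 change of 0.82 (SE 0.16 with an edgeR adjusted p of 0.0322). Aldoa had 268, 209 and 174 CPM in AML lung, against 124, 139 and 121 CPM in normal lung, again without overlap (log2 change 0.79, SE 0.17 with an edgeR adjusted p of 0.0429). AML lung replicate 1 was the highest for both genes and replicate 3 the lowest of the AML lung libraries. Hk2, the inducible hexokinase that commits glucose to the cell, had 35.9, 29.2 and 33.1 CPM in AML lung, against 100.4, 66.1 and 48.4 CPM in normal lung. Every AML lung library was below every normal lung library, with normal replicate 1 the highest (log2 change -1.09, SE 0.23 with an edgeR adjusted p of 0.0439). Pfkfb4 had 46.4, 48.6 and 42.3 CPM in AML lung and 79.6, 68.6 and 63.9 CPM in normal lung, without overlap (log2 change -0.60, SE 0.11 with an edgeR adjusted p of 0.0344).

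Other members of nonclassical monocytes did not pass the adjusted threshold. Gapdh had 626, 662 and 581 CPM in AML lung and 346, 495 and 417 CPM in normal lung (log2 0.59, edgeR adjusted p 0.0787), and Eno3 had 378, 304 and 211 CPM in AML lung and 181, 208 and 173 CPM in normal lung (log2 0.69, edgeR adjusted p 0.103); neither gene's ranges overlapped. Slc2a1 had 14.1, 12.1 and 43.2 CPM in AML lung, where replicate 3 stood with the normal lung libraries, which had 37.7, 48.7 and 58.1 CPM. The phosphofructokinase gene Pfkp had the same layout, at 56.1, 53.3 and 105 CPM in AML lung and 98.8, 117 and 124 CPM in normal lung. Of the 30 members tested, 17 had an unadjusted p under 0.05, against 21.7% of all genes. Upper-glycolysis enzymes had a median log2 change of -0.54 and lower ones of 0.48, against 0.01 for all genes tested.

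Classical monocytes, the inflammatory monocytes that enter tissue from blood, had 3 members that rose, all from the lower pathway or the lactate step. Gapdh, the dehydrogenase at the centre of the pathway, had 1156, 1067 and 897 CPM in AML lung, against 385, 525 and 479 CPM in normal lung. The lowest AML lung library lay well above the highest normal one, and the means were 1040.1 ± 131 CPM for AML lung against 463 ± 71.1 CPM for normal lung (SD, n = 3 each; log2 change 1.14, SE 0.16 with an edgeR adjusted p of 0.014). Ldha had 206, 203 and 171 CPM in AML lung and 83.2, 110.3 and 99.2 CPM in normal lung (log2 change 0.96, SE 0.15 with an edgeR adjusted p of 0.0169). Pgk1, which makes the first ATP of the pathway, had 242, 209.6 and 190.3 CPM in AML lung and 111, 126 and 110.1 CPM in normal lung (log2 change 0.85, SE 0.14 with an edgeR adjusted p of 0.0171). In all 3 genes the AML and normal ranges were apart. Hk2 fell here as well, to 52.02, 30.4 and 36.4 CPM in AML lung, against 96.6, 77.3 and 66.5 CPM in normal lung (log2 change -1.09, SE 0.22 with an edgeR adjusted p of 0.0377), so that Hk2 and these 3 genes moved in opposite directions. Hk2 is not the only hexokinase gene of this class. Over all libraries Hk2 averaged 59.9 CPM, Hk1 37 CPM and Hk3 22.2 CPM, and neither Hk1 nor Hk3 passed in any class.

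**Figure D3:**
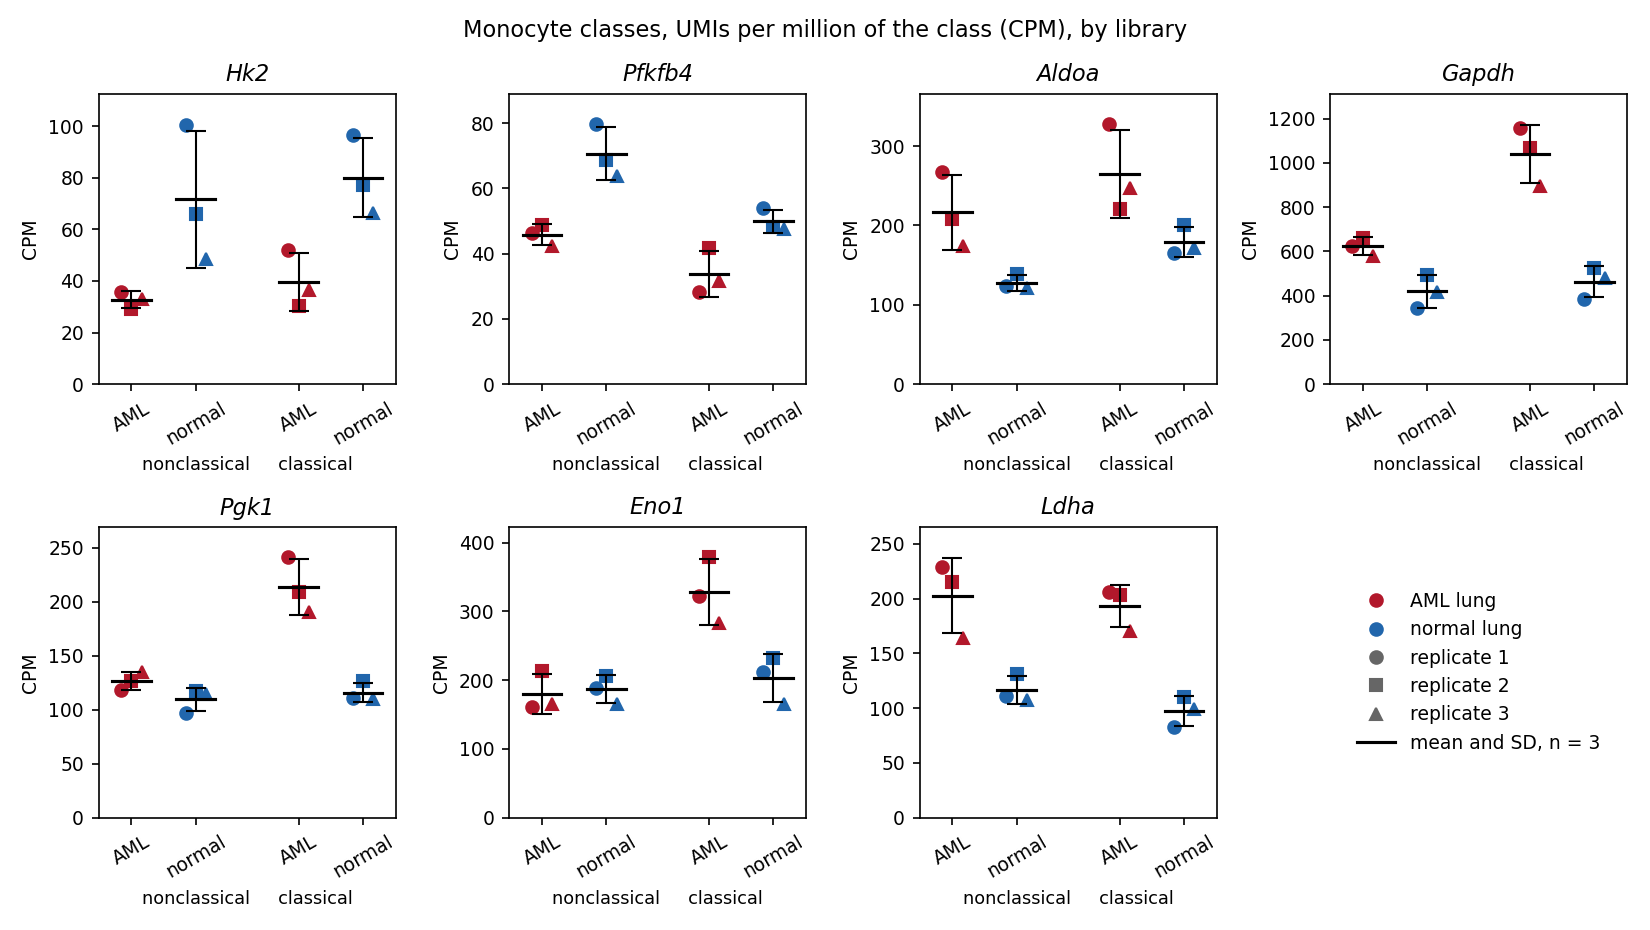
CPM per library of the members that passed the test in a monocyte class, with Eno1, in AML lung (left of each pair) and normal lung (right), points being libraries and bars group means ± SD. AML lung libraries lie above normal lung libraries for Gapdh, Ldha and Pgk1 in classical monocytes and below them for Hk2 in both classes.

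All 6 lower-pathway members had a positive log2 change in classical monocytes, with a median of 0.78 against 0.00 for all genes tested, and 2 of them passed the test. Pkm had 493, 515 and 376 CPM in AML lung and 240.0, 329.5 and 252 CPM in normal lung without overlap (log2 0.72, edgeR adjusted p 0.0604). Mif, a cytokine gene that HIF-1 can induce, had 63.9, 62.3 and 42.2 CPM in AML lung and 19.97, 30.6 and 32.7 CPM in normal lung, also apart (log2 0.97, edgeR adjusted p 0.0615). None of the 8 hypoxia members tested passed here, and Hif1a itself had a log2 change of 0.34. Of the 29 members tested, 18 had an unadjusted p under 0.05, against 22.1% of all genes.

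Eno1 was the member whose AML effect differed between the 2 monocyte classes. In classical monocytes it had 322, 379 and 283 CPM in AML lung and 212, 232 and 165 CPM in normal lung, ranges that did not overlap. In nonclassical monocytes it had 160.4, 214 and 166 CPM in AML lung and 189, 206 and 166 CPM in normal lung, ranges that did. The difference of the 2 log2 changes, classical minus nonclassical, was 0.69 (SE 0.12 with an edgeR adjusted p of 0.0345 for the interaction, library as a covariate), against 0.527% of all genes higher and 0.851% lower. Gapdh (0.52, edgeR adjusted p 0.0574) and Pgk1 (0.60, edgeR adjusted p 0.0906) did not pass this test. Leaving out any library but AML lung replicate 3 ended the Eno1 call, while the difference stayed between 0.62 and 0.72; without AML lung replicate 3, 7 members passed, as did 8.26% of all genes.

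The upstream sequences of the 4 genes that moved in classical monocytes are shown because they changed together or in opposition: 200 bases before a transcription start that the RefSeq table gives for each gene on GRCm38.p6, 5′ to 3′ on the gene's strand. Capitals mark ACGTG and its reverse complement CACGT, the core of the element that HIF-1 is known to bind; overlapping matches run together, as in CACGTG, which is also the E-box core. The windows are chr7:46845604-46845803 (+) for Ldha, chrX:106186900-106187099 (+) for Pgk1, chr6:125165774-125165973 (-) for Gapdh and chr6:82774455-82774654 (-) for Hk2. Those of Ldha and Gapdh lie inside the spans given above, whose outermost starts are further upstream.
Ldha: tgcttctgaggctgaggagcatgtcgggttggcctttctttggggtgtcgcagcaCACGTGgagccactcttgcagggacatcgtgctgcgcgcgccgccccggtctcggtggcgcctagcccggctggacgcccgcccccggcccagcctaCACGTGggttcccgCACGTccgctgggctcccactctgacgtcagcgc
Pgk1: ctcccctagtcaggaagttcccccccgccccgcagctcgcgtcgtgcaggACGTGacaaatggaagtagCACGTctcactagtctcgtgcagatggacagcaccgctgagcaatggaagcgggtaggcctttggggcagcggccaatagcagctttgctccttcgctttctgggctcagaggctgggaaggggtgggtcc
Gapdh: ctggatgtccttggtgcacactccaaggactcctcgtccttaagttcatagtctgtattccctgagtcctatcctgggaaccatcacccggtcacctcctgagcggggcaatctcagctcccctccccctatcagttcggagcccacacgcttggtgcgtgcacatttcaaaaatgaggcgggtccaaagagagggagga
Hk2: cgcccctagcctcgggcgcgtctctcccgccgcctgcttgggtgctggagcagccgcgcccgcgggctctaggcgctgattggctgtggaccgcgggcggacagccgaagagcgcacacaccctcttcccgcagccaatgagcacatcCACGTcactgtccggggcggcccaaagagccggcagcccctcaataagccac
Ldha had 3 runs in capitals, Pgk1 had 2, Hk2 had 1 and Gapdh had 0, so the letters were present upstream of genes that rose and of the gene that fell. Over 250 bases upstream, 12 of the 30 members in the RefSeq table (40%) held either form, against 16.6% of 27025 genes. The list was chosen to hold genes that HIF-1 is known to induce, so these shares cannot be read apart from that choice. A match is a description of letters and not a binding site, and genes can have further starts.

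Several other measures moved with the monocyte results, and apart from the cycling cells their part was not tested. Cells with at least 2 cycling genes made up 20%, 24.4% and 3.05% of classical monocytes in AML lung replicates 1 to 3, against 1.46%, 1.81% and 2.67% in normal lung, and 10 of 11 cycling genes tested rose there, such as Top2a with a log2 change of 3.28. With cycling cells left out, Gapdh, Ldha and Pgk1 still passed, and Hk2 had a log2 change of -1.05 with an edgeR adjusted p of 0.0528. Markers of other cells also rose in classical monocytes. Of 5 markers of immature myeloid cells 2 could be tested and both rose, with a summed level of 92.9 to 346 CPM in AML lung and 19.97 to 21.1 CPM in normal lung, where 1 of the 5 was at 0. Of 10 neutrophil markers 2 of the 5 tested rose, the sum being 1055 to 2219 CPM in AML lung and 303 to 385 CPM in normal lung, where 1 of the 10 was at 0. The share of ribosomal protein UMIs there was 12.7% to 15.4% in AML lung and 11.6% to 12.5% in normal lung. In nonclassical monocytes the summed level of 7 endothelial markers was 1028 to 1370 CPM in AML lung and 264 to 352 CPM in normal lung, with none at 0 and with 1 of the 2 tested higher and 1 lower. The mitochondrial share there was 1.31% to 1.57% in AML lung and 1.18% to 1.28% in normal lung. The summed level of 10 genes that respond to tissue dissociation was 2149 to 5095 CPM in AML lung and 4836 to 5468 CPM in normal lung in nonclassical monocytes; all 10 had a negative log2 change in both classes and none passed. Genes with short spans also ran higher in AML lung: in classical monocytes genes under 10000 bases had a median log2 change of 0.18 and those over 50000 bases of -0.14, while the 9 members under 10000 bases had 0.74 and the other 20 had -0.03. In nonclassical monocytes the same medians were 0.16 and -0.10 for all genes, and 0.69 and -0.03 for members. Single libraries weighed heavily as well: without AML lung replicate 3 the calls came to 16 in nonclassical and 11 in classical monocytes, while 14.8% and 12.2% of all genes were called, and without any single normal lung library they came to 0. Nonclassical monocytes also had 0 without AML lung replicate 1 or 2 and when cells with markers of 2 classes were kept.

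Interstitial macrophages, resident cells of the lung wall, had few cells: 42, 109 and 286 in AML lung, against 27 and 29 in normal lung replicates 2 and 3. Pfkp fell, with 61.2, 54.8 and 105 CPM in AML lung, against 282 and 256 CPM in normal lung (log2 change -1.94, SE 0.31 with an edgeR adjusted p of 0.0279). Hk2 had 40.8, 32.9 and 34.96 CPM in AML lung and 120.3 and 75.4 CPM in normal lung (log2 change -1.51, SE 0.30 with an edgeR adjusted p of 0.0468). Eno3 had 143, 66.8 and 55.2 CPM in AML lung, against 6.33 and 0 CPM in normal lung (edgeR adjusted p 0.0438). The counts were 188 UMIs in AML lung and 2 in normal lung, a ratio of 22.2 with a 95% interval of 6.05 to 184 that covers counting error only (exact, conditional on the total). Other measures moved with these 3 genes, and their part was not tested. Of the 7 markers of nonclassical monocytes 5 rose in this class, and none was at 0. Their sum was 2024 to 3018 CPM in AML lung and 518 to 1155 CPM in normal lung. In AML lung replicate 1 it exceeded that of the class's own markers, 2111 CPM. The 6 classical monocyte markers summed to 930 to 1203 CPM in AML lung and 1347 to 2370 CPM in normal lung. The 5 markers of type 2 conventional dendritic cells summed to 69.8 to 145 CPM in AML lung and 218 to 357 CPM in normal lung. No marker of these 2 lists passed. Dendritic cells of that type averaged 119 CPM for Hk2 and 426 CPM for Pfkp, in 2 libraries. Sums of further lists were also apart, in both directions. The gate let cells with at least 2 C1q genes into the interstitial macrophage class even when a monocyte class scored best. Pfkp and Hk2 in AML lung lay near their levels in nonclassical monocytes of the same libraries, given above. All 10 dissociation genes had a negative log2 change with none passing, and their sum was 3223 to 5687 CPM in AML lung and 6100 to 7231 CPM in normal lung. The calls were 0 without AML lung replicate 1, without either normal lung library, or with cycling cells left out.

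Eno3 had a positive log2 change in all 8 classes, and its highest level was in nonclassical monocytes. In interstitial macrophages Eno3 equalled 2.73% to 4.73% of the summed nonclassical markers in AML lung and 0% to 0.548% in normal lung, against 4.97% to 7.26% in AML lung and 4.04% to 4.95% in normal lung within nonclassical monocytes. In B cells, which are not known for Eno3, it had 9.51, 6.91 and 29.5 CPM in AML lung and 4.06, 3.12 and 3.04 CPM in normal lung, and the marker sum was 119 to 479 CPM in AML lung and 74.4 to 104 CPM in normal lung. AML lung replicate 3, the library with the fewest UMIs per cell, had the highest Eno3 level of all libraries in classical monocytes, alveolar macrophages, neutrophils, B cells, T cells and NK cells, and also the highest marker sum. Elsewhere the measures parted: in T cells AML lung replicates 1 and 2 had Eno3 at 7.36 and 6.59 CPM, against 1.93 to 3.74 CPM in normal lung, but marker sums of 183 and 187 CPM, against 191 to 246 CPM in normal lung. Alveolar macrophages of AML lung replicate 1 and NK cells of AML lung replicate 2 likewise had more Eno3 and a lower marker sum than every normal lung library. How much of the Eno3 level outside nonclassical monocytes was free RNA or cells of 2 kinds in a droplet was not tested.

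**Figure D4:**
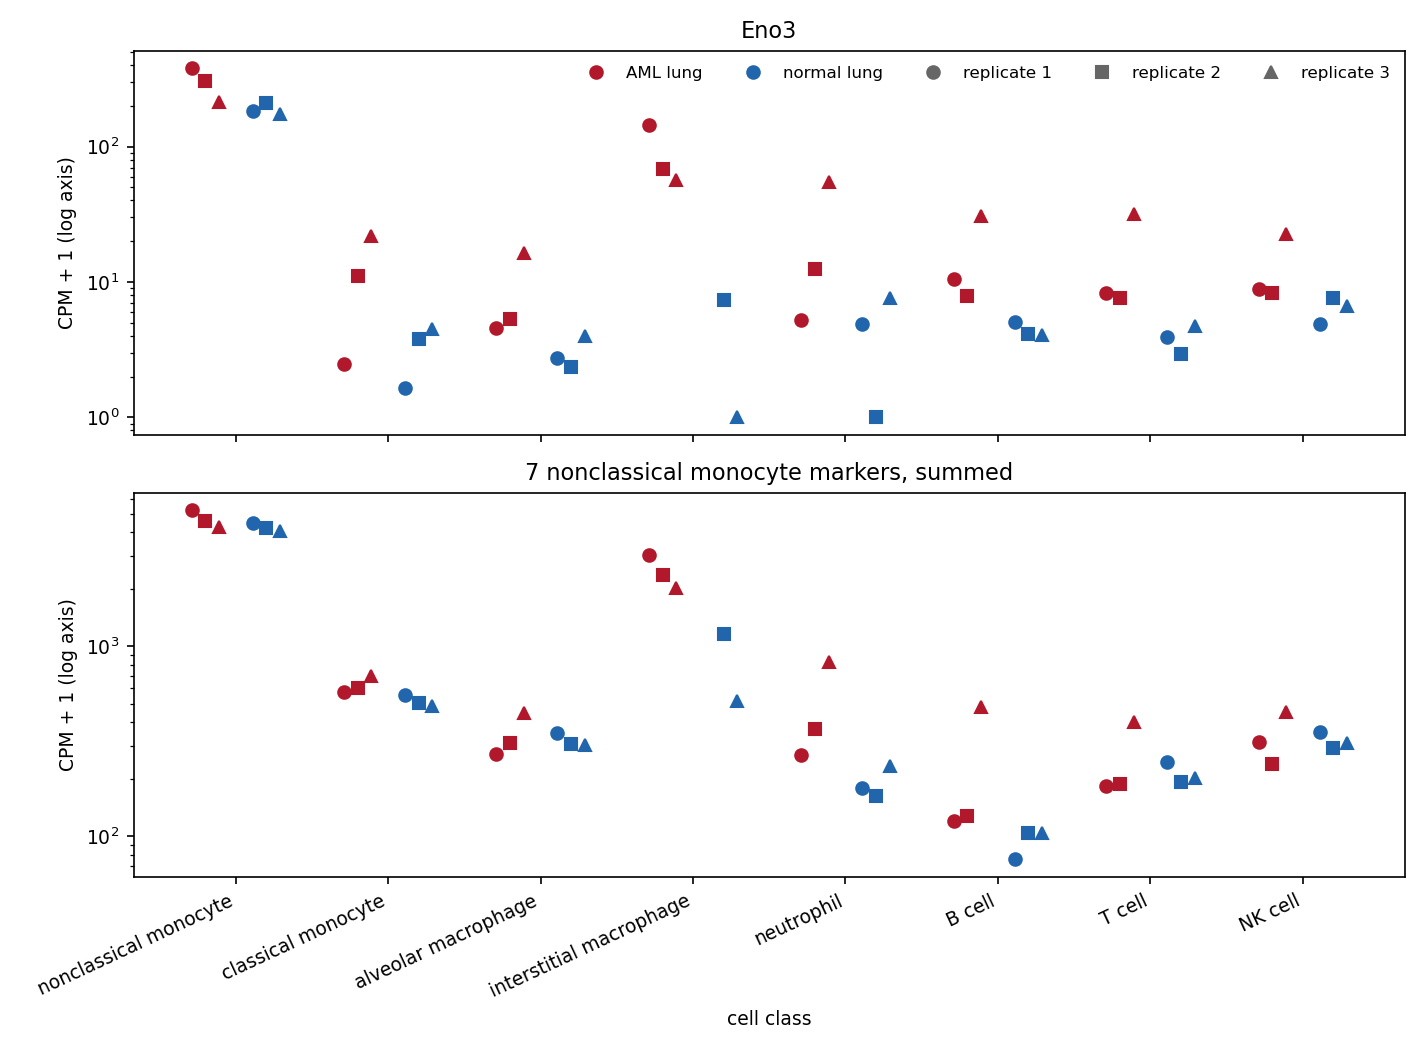
Level of Eno3 (upper panel) and summed level of the 7 nonclassical monocyte markers (lower panel) in CPM plus 1 on log axes, in each main class, with AML lung libraries left of normal lung libraries and 1 point per library. Nonclassical monocytes lie at 173 CPM or more in every library, and in B cells, T cells, NK cells, alveolar and interstitial macrophages every AML lung library lies above every normal lung library for Eno3, while the marker sums overlap in T cells, NK cells and alveolar macrophages.

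In the other 5 classes no member passed the test in edgeR, where 0% of all genes passed in alveolar macrophages, neutrophils, B cells and T cells, and 0.106% were higher and 0.0317% lower in NK cells. Unadjusted, 5 of 28 members tested in alveolar macrophages, 9 of 29 in neutrophils, 7 of 28 in B cells, 7 of 27 in T cells and 10 of 23 in NK cells had p under 0.05, against 9.16%, 13.1%, 10.4%, 7.95% and 15.6% of all genes. DESeq2 called the 1 member with an adjusted p in B cells and 4 of 18 in NK cells, against 4.76% and 3.67% of all genes with one. It called none of 12, 26 and 27 members in alveolar macrophages, neutrophils and T cells, where 1.15%, 1.73% and 0.236% of all genes were called. NK cells had 8 members with every AML lung library above every normal one, against 8.37% of all genes, and 3 below, against 14%. B cells had 7 above and 2 below (background 9.05% and 8.44%), T cells 6 and 1 (background 7.52% and 8.58%) and alveolar macrophages 4 and 3 (background 7.68% and 8.81%). Gapdh in NK cells had 389, 498 and 512 CPM in AML lung and 162, 282 and 276 CPM in normal lung (log2 1.03, SE 0.22 with an edgeR adjusted p of 0.107, DESeq2 adjusted p 0.000501). In NK cells the ribosomal protein share was 12.5% to 17.6% in AML lung and 9.11% to 11.1% in normal lung, the nuclear RNA Malat1 was at 15644 to 19280 CPM in AML lung and 19530 to 25033 CPM in normal lung, and 6 of 12 cycling genes had an unadjusted p under 0.05; their part was not tested. Pgk1, Pkm and Ldha were the other 3 that DESeq2 called in NK cells, with edgeR log2 changes of 0.93, 0.71 and 0.64. In B cells Gapdh had 219, 193 and 328 CPM in AML lung and 114, 149 and 165 CPM in normal lung (edgeR adjusted p 0.457, DESeq2 adjusted p 0.0306). All 7 cycling genes tested in B cells had a positive log2 change (median 2.34), and 6 had an edgeR unadjusted p under 0.05. Cycling cells were 0.695% to 2.88% of B cells in AML lung and 0.506% to 1.20% in normal lung. Neutrophil markers summed to 837 CPM in B cells of AML lung replicate 3, against 35.1 to 155 CPM in the other libraries. The part of these measures was not tested. T cells gave 351, 349 and 853 CPM in AML lung and 282, 341 and 289 CPM in normal lung for Gapdh, with replicate 3 far above the other 2 AML lung libraries. Cycling cells made up 27.0% of the T cells of that library, against 5.20% to 9.84% in the other 5 libraries, and their part was not tested. In NK, T and B cells, genes spanning under 10000 bases had median log2 changes of 0.23, 0.17 and 0.18. Those over 50000 bases had -0.12, -0.10 and -0.09. Members under 10000 bases had medians of 0.58, 0.67 and 0.39 there, and the other members -0.02, -0.01 and 0.04. In alveolar macrophages the medians of all genes were 0.07 and -0.01, and those of members 0.03 and 0.09. The part of gene span was not tested.

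In neutrophils several hypoxia members had log2 changes beyond 1 in either direction, none of which passed. Hilpda had 8.44, 37.4 and 13.1 CPM in AML lung and 4.64, 2.01 and 2.5 CPM in normal lung (log2 2.58, edgeR adjusted p 0.285). Bnip3 had 26.5, 17.9 and 17.6 CPM in AML lung and 42.4, 40.9 and 50.8 CPM in normal lung (log2 -1.12, edgeR adjusted p 0.293). Neither gene's ranges overlapped. Ndrg1 (-1.16), Egln3 (-0.99), Hk3 (-0.73) and the phosphofructokinase regulator gene Pfkfb3 (-0.67) were on the low side in AML lung, each with every AML lung library below every normal one. In all, 1 member lay above and 7 below, against 7.88% and 10.9% of all genes. Other measures of this class were apart as well, and their part was not tested. Malat1 was at 20132 to 21668 CPM in AML lung and 22987 to 25461 CPM in normal lung, and the dissociation genes summed to 12672 to 17465 CPM in AML lung and 18688 to 20777 CPM in normal lung. The 5 markers of late neutrophil precursors summed to 938 to 1375 CPM in AML lung and 418 to 638 CPM in normal lung, and the 7 of nonclassical monocytes to 268 to 829 CPM in AML lung and 162 to 234 CPM in normal lung; no marker of either list was at 0 and none passed. Slc2a3 and Slc16a3, the transporters that mark this class, spread widely among AML lung libraries, at 295, 469 and 176 CPM for Slc2a3 against 321, 305 and 358 CPM in normal lung, with AML lung replicate 3 the lowest. In neutrophils of that library the class's 10 markers summed to 53868.5 CPM, against 80263 to 107405 CPM in the other libraries. Its ribosomal protein share was 6.32%, against 1.91% to 3.06% in the others. The part of these 2 measures was not tested. In alveolar macrophages Hk2 had 28.1, 30.4 and 29.8 CPM in AML lung and 51.8, 42.2 and 45.4 CPM in normal lung (log2 -0.64, SE 0.12 with an edgeR adjusted p of 0.516), and Hilpda had 41.4, 79.9 and 39.8 CPM in AML lung and 19.9, 27.8 and 30.9 CPM in normal lung (log2 1.04, edgeR adjusted p 0.516).

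Read across classes, a few members kept a sign, although each class's comparison rests on the same 6 libraries and these are not independent. Hk2 was negative in all 7 classes in which it was tested, Gapdh, Gpi1 (glucose-6-phosphate isomerase) and Eno3 were positive in all 8, and Hilpda was positive in all 7 tested. The lactate exporter Slc16a3 was positive in all 6 tested. Ldha, Pkm, Pgk1, Eno1, Tpi1, Mif and Higd1a were positive in 7 of 8, and Hk1, Pfkl and Pfkp were negative in 7 of 8. With size factors from median ratios in place of TMM these counts were the same, and with UMI totals alone Hk1 and Pfkp were negative in 6 of 8. Small changes could turn: over 15 alternatives Hk2 was positive in 4 in T cells and in 2 in B cells, Gapdh was negative in 2 in alveolar macrophages and Gpi1 in 1 in neutrophils, while Eno3 and Hilpda kept their sign in all. The summed level of the 15 enzyme genes also differed by class. In classical monocytes it was 3576, 3352 and 2956 CPM in AML lung and 1924, 2352 and 2020 CPM in normal lung, and in nonclassical monocytes 2612, 2543 and 2206 CPM in AML lung and 1762, 2107 and 1824 CPM in normal lung. In both classes the groups were apart, as they were in interstitial macrophages, NK cells and B cells. Interstitial macrophages had 2367 to 2668 CPM in AML lung and 1688 to 2108 CPM in normal lung. NK cells had 1612 to 1857 CPM in AML lung and 1164 to 1445 CPM in normal lung. Neutrophils and T cells overlapped. So did alveolar macrophages, with 1992, 1948 and 2208 CPM in AML lung and 2091, 2219 and 2091 CPM in normal lung. B cells were lowest, with 826, 748 and 1217 CPM in AML lung and 619, 701 and 662 CPM in normal lung.

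**Figure D5:**
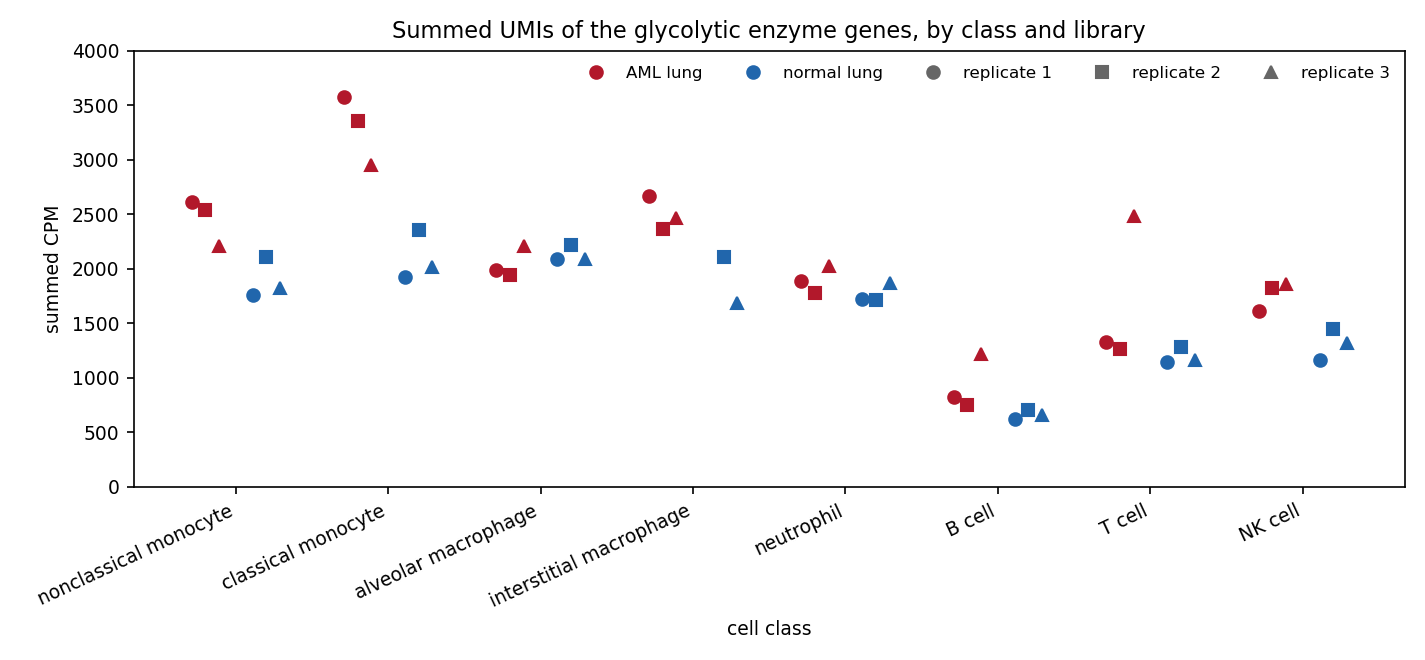
Summed level of the 15 glycolytic enzyme genes in CPM per library, with AML lung libraries left of normal lung libraries in each main class. Classical monocytes of AML lung are highest, at 2956 to 3576 CPM, and B cells of normal lung are lowest, at 619 to 701 CPM. Alveolar macrophages, neutrophils and T cells overlap between the groups, and the other classes do not.

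Among genes next to the pathway the same test made 1 call, a share no higher than that of all genes. It was 1 of 7 pentose phosphate genes in nonclassical monocytes: Taldo1, a transaldolase, had 482, 539 and 412 CPM in AML lung and 298, 314 and 301 CPM in normal lung (log2 change 0.68, SE 0.13 with an edgeR adjusted p of 0.0322). None passed in either monocyte class or in interstitial macrophages among the other isozymes and regulators of glycolysis (13, 11 and 3 tested in nonclassical monocytes, classical monocytes and interstitial macrophages), the genes of pyruvate entry to mitochondria (11, 10 and 8 tested), the oxygen-sensing regulators of HIF (6, 6 and 5 tested) or further hypoxia-inducible genes (23, 21 and 18 tested). The last list had median log2 changes of 0.06 in nonclassical and 0.17 in classical monocytes. Several glycolytic genes, among them Gapdh, Ldha, Pgk1, Tpi1 and Eno1, have near-identical copies in the genome, and some members overlap a gene on the other strand, as Hk2, Pfkp and Aldoa do; the sources used here do not say how such reads were counted, so these levels carry that uncertainty.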

How the data were processed

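The authors deposited UMI counts per gene and cell barcode for each library, made with Cell Ranger 7.0.0 on mm10 per the submitters' processing notes; filters before deposit are not given in the sources used here. Barcodes were kept from 200 detected genes and 500 UMIs upward if mitochondrial UMIs were under 10%. The gene set, the lists and the marker lists were chosen with earlier results of these data known. A cell entered a class when its marker score reached 0.2 and no other class scored over 0.6 of it. At least 2 of that class's markers also had to be detected. Interstitial macrophages were gated otherwise, by detection of at least 2 of the 3 C1q genes. Such a cell entered if its best score was for that class or for either monocyte class, without the score limits. All limits were set on the marker genes alone, after the counts were seen. In the other classes, cells with markers of 2 classes were set aside, and no doublet caller was run. Counts were summed per class and library where at least 20 cells were present. The main test was edgeR 4.0.16 (quasi-likelihood, TMM scaling, filterByExpr, Benjamini-Hochberg over all genes tested, threshold 0.05, R 4.3.3), with DESeq2 1.42.0 as an alternative; the fits were tested on simulated data. SE is the log2 change divided by the square root of F. The class comparisons and the interaction had library as a covariate and average log values. Any member could be named, those past the threshold first by p; of other lists, up to 6 genes past the threshold per class, and marker genes only beside a result. Genes below the filter of a class were not tested in it. Replicates within a group differed by more than sampling noise (chi-square over degrees of freedom 46.2 to 178). Alternatives were other size factors, no low-count filter, stricter cells or gate, mixed cells kept, cycling cells left out, a replicate block and leaving out each library, and, chosen after seeing the data, UMI totals alone in place of TMM.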

Additional observations from a re-analysis of the deposited data

Results flagged for a closer look

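The AML effect on Eno1 differed between classical and nonclassical monocytes by 0.69 on the log2 scale, positive meaning a larger AML over normal change in classical monocytes. A test of the difference itself brought it up (edgeR adjusted p 0.0345). AML lung libraries were above normal lung libraries in classical monocytes in 3 of 3 libraries, and the groups overlapped in nonclassical monocytes. Cycling cells were also more frequent in the classical monocytes of AML lung replicates 1 and 2, at 20% and 24.4%, and at 3.05% in replicate 3, against 1.46% to 2.67% in normal lung; their part in the difference was not tested.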

How the results depend on the processing

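The 12 named changes were recomputed under 171 alternatives: none turned sign, 109 kept the call and 62 lost it. Of 3047 alternatives for 208 uncalled changes, 2915 had the same sign. Counts of members that differ between classes stayed within 1.5 times the reported count in 110 of 112 alternatives; interstitial macrophages against the other classes, with 13 reported, gave 8 with the stricter gate and 6 in normal lung libraries alone. With UMI totals alone in place of TMM, chosen after seeing the data, 4 members turned sign in neutrophils against the other classes.

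Counts of calls between AML and normal lung moved more. In nonclassical monocytes, with 4 reported, there were 12 without the low-count filter (7 higher, 5 lower), 0 when cells with markers of 2 classes were kept, and 10 by DESeq2 (7 higher, 3 lower; 8.67% of all genes). In classical monocytes, also with 4, there were 12 without the filter (11 higher, 1 lower) and 9 by DESeq2 (8 higher, 1 lower; 5.61% of all genes). In interstitial macrophages, with 3, there were 5 without the filter and 0 with cycling cells left out, and no fit could be made with the stricter gate because too few libraries held 20 cells. Where none was reported, neutrophils gave 4 and NK cells 5 without the filter. DESeq2 gave 1 in B cells and 4 in NK cells (4.76% and 3.67% of all genes). The interaction, with 1 reported, gave 7 without the filter, 2 with the stricter gate, 0 with mixed cells kept, 2 by DESeq2 and 2 with UMI totals alone. Where no share of all genes is given beside a count, it cannot be read as a result about the members alone. The cause was not tested.

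Leaving out each library in turn gave 0 to 16 calls in nonclassical monocytes, 0 to 11 in classical monocytes, 0 to 2 in interstitial macrophages, 0 to 2 in NK cells and 0 to 7 for the interaction. The highest counts of the monocytes and the interaction came without AML lung replicate 3, the library of lowest depth per cell: 8 higher and 8 lower in nonclassical and 8 higher and 3 lower in classical monocytes. Without that library 14.8% of all genes were called in nonclassical monocytes, 12.2% in classical monocytes and 8.26% for the interaction. Leaving out any other library gave 0 in nonclassical monocytes, and leaving out any normal lung library gave 0 in classical monocytes. For the other counts, those of interstitial macrophages and NK cells among them, the shares of all genes are not given here. Those counts do not describe the members alone.

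Replicate numbers are shared by the groups, and the labels name nothing that pairs the libraries. Over the classes, deviations of same-numbered libraries correlated at 0.08 to 0.33 for number 1, -0.14 to 0.05 for number 2 and 0.02 to 0.40 for number 3, so not every pair was above 0.1 in any class. In each class but 1, 1 or 2 of 6 libraries correlated best with another number. In interstitial macrophages all 4 compared did so with their own, at 0.02 to 0.05. Only normal lung replicates 2 and 3 were in that class, and their deviations mirror each other, so these matches are not separate observations. The order of UMIs per barcode by number is the same in both groups. With the replicate block, nonclassical monocytes gave 8 calls, classical monocytes 9, NK cells 3 and interstitial macrophages 0. The shares of all genes called with the block are not given here, so these counts do not describe the members alone. Low counts limit Ak4, Adm and the interstitial macrophages, where a difference could go undetected.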
